A study of Danio rerio with 4 samples.

Results

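The genes btg2, baxa and sesn2 are known in mammals as targets of p53, the transcription factor that answers DNA damage and other stress. They were chosen by name, with their opposite directions in these data already known, and are 3 of the 2477 rows of the gene table. The RNA came from primordial germ cells, which later form eggs and sperm, of AB strain zebrafish embryos 13 hours after fertilization. All embryos had received a morpholino, a synthetic antisense oligonucleotide: in 2 libraries the control morpholino and in 2 libraries the morpholino against dead end, whose product is a germ cell protein that binds RNA. The cells of both groups were sorted on EGFP restricted to the germline. The labels name neither the construct that supplies the EGFP nor the number of embryos behind a library. They do not say how the dead end morpholino acts on its RNA, and dnd1 itself was not analysed here.

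Active p53 can halt the cell cycle, start repair, or commit a cell to apoptosis, and different target genes serve these outcomes. Btg2 belongs to the BTG and Tob family of antiproliferative proteins, which bring the CCR4-NOT deadenylase to messenger RNAs, and it is also an immediate early gene in mammalian cells. Bax, the protein of which baxa encodes a zebrafish form, opens the outer mitochondrial membrane so that cytochrome c can leave and the initiator caspase-9 is activated. In mammals Sestrin 2 senses leucine and restrains the growth kinase complex mTORC1 through the GATOR complexes, and its gene also responds to the transcription factor ATF4. The comparison asks whether such an apoptosis or stress programme moved as a unit when Dead end was reduced.

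The authors' deposited table gives 1 FPKM value (fragments counted per length of transcript and per size of library) per gene and group. The values of single libraries, their spread and their depth are therefore unknown, and whether a difference exceeds the spread between libraries could not be computed here. A gene is called below where the authors' q (their p adjusted over genes) was under 0.05 and the higher group had at least 1 FPKM, which held for 2431 rows or 98.1% of those deposited. All deposited rows had q under 0.05, so the call separates almost nothing within the table, and genes outside it were not analysed here. Among the called genes 65.8% were higher and 34.2% lower with the dead end morpholino. These shares are the background for every count that follows. Where a pair of FPKM values is given for a gene, the control comes first.

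The antiproliferative gene btg2 and the pro-apoptotic gene baxa were higher in the dead end morphants, and the mTORC1 restraint gene sesn2 was lower, by 3.53-fold to 3.75-fold. The authors' deposited table lists btg2 (ENSDARG00000020298, chromosome 22, 748817 to 792003, positions taken as GRCz10) at 90.9 FPKM with the control and 341 FPKM with the dead end morpholino, a 3.75-fold higher level. It lists baxa (ENSDARG00000020623, chromosome 3, 37634630 to 37644015) at 12.3 and 43.5 FPKM, which is 3.53-fold higher. For sesn2 (ENSDARG00000070012, chromosome 19, 43745517 to 43761860) the authors' deposited table has 46.9 FPKM with the control and 12.8 FPKM with the dead end morpholino, a 3.67-fold lower level. The 3 differences are thus close in size and split in sign. The log2 ratios (dead end divided by control FPKM) were 1.91 for btg2, 1.82 for baxa and -1.88 for sesn2. The test statistics in the authors' deposited table were 4.03, 3.28 and -3.15 in the same order, and all 3 genes carried the smallest q there, 0.00107, which 774 rows share. Because the genes were chosen on these values, they are a description and no test of the 3 is given.

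**Figure D1:**
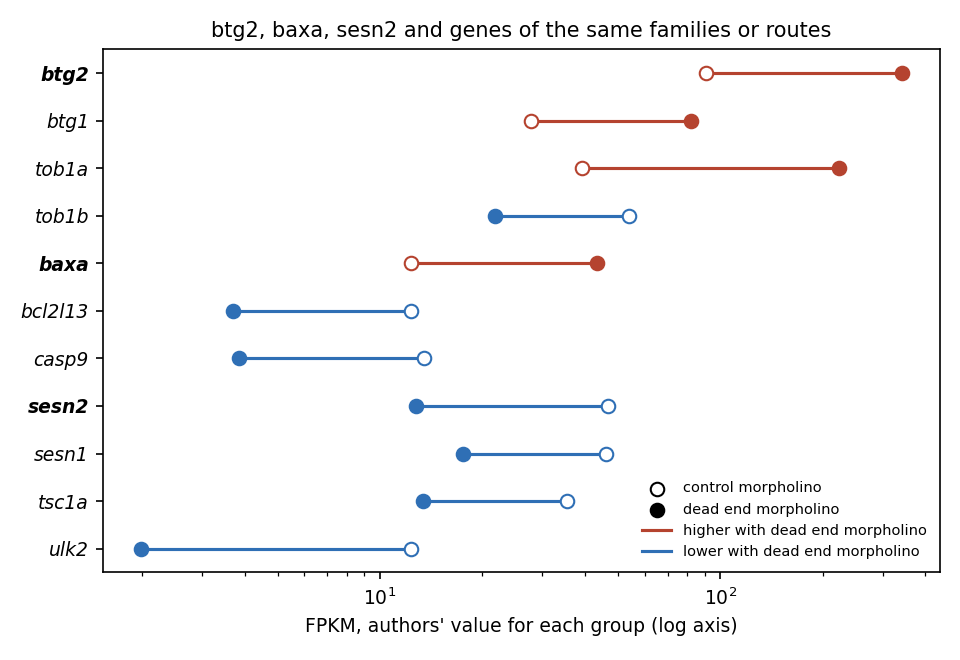
FPKM (log axis) of btg2, baxa and sesn2 (bold) and of a selection of called genes of the same families or routes. Each has 1 value per group from the authors' deposited table and therefore no error bar. Not drawn are the higher genes cnot6a, cnot8, pan3, rhebl1, rps6kb1b and eif4ebp2 and the lower genes pan2, birc7 and deptor. Open circles are control and filled circles dead end morphants; btg2, btg1, tob1a and baxa lie higher with the dead end morpholino, and tob1b, bcl2l13, casp9, sesn2, sesn1, tsc1a and ulk2 lie lower.

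The order of the levels, which FPKM allows since it is scaled to transcript length, changed between the groups. In controls btg2 came first, sesn2 second and baxa last, with sesn2 at 3.804 times the FPKM of baxa. In dead end morphants baxa was above sesn2, at 3.41 times its FPKM, while btg2 stayed first. The ratio of btg2 to baxa was 7.38 in controls and 7.84 in dead end morphants, so these genes kept nearly the same proportion. The ratio of btg2 to sesn2 went from 1.94 to 26.7. Part of these ratios and of the change of order is set by the choice of the 3 genes for their directions. Which of these neighbours differ beyond the spread of the libraries is unknown.

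The folds of the 3 genes lay above the median of called genes but not at the extreme. Of the 1533 higher genes with both values above 0, 30.8% had a larger fold than btg2 and 34.5% a larger fold than baxa. Of the 712 such lower genes, 38.2% had a larger fold than sesn2. The median fold was 2.96 among higher and 3.08 among lower genes. By level, 8.8% of the called genes had a higher FPKM than btg2 in controls and 5.7% in dead end morphants. For baxa these shares were 62.1% and 37.15%, and for sesn2 they were 19.2% and 68.3%.

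**Figure D2:**
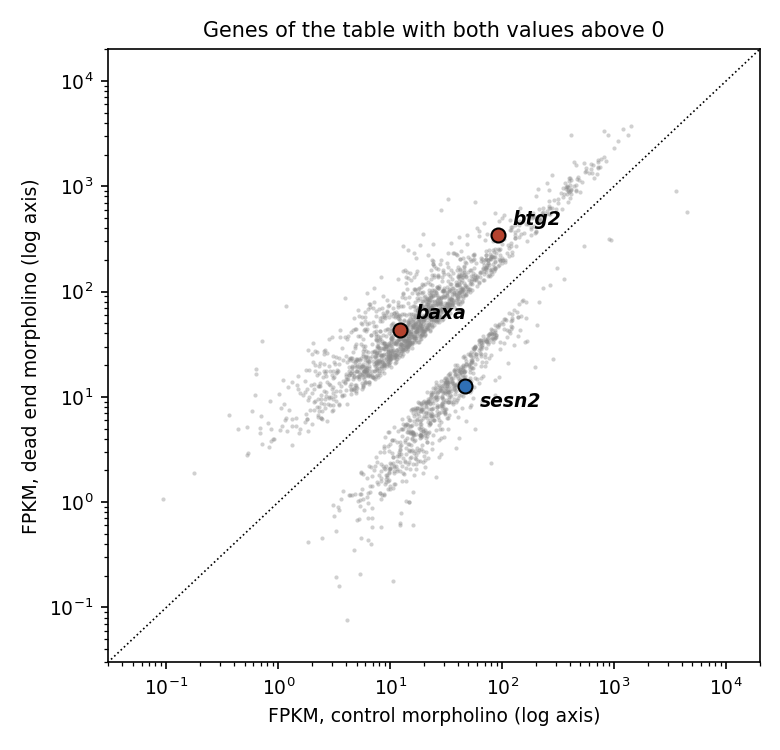
FPKM in control (horizontal) against dead end morphants (vertical), both on log axes, for called genes with both values above 0; each grey point is 1 gene and the dotted line marks equal values. The empty band along that line is where genes without q under 0.05 would lie; btg2 and baxa lie in the upper cloud at 341 and 43.5 FPKM in dead end morphants, and sesn2 in the lower cloud at 12.8 FPKM.

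Markers of germ cells and of somatic cells moved strongly between the same groups. In a bulk sample, a change in the number of cells of a type and a change in RNA per cell cannot be told apart. The values also do not say which of the sorted cells carried the somatic markers. Of 14 called germ cell markers 13 were lower, and the summed level of the 14 went from 10585 to 2409 FPKM. The larger part of that sum in both groups came from ca15b (4484 and 568 FPKM) and nanos3 (3543 and 906 FPKM). None of the defining markers nanos3, ddx4, dazl, ca15b, tdrd7a and piwil2 was at 0 in either group, and somatic markers also had signal in controls. Of 17 called markers of muscle and paraxial mesoderm 16 were higher, and the summed level of the 17 went from 276 to 3335 FPKM. Sums over lists of different genes do not compare the amounts of cell types with each other. All 24 called neural markers were higher, and their sum went from 275 to 1743 FPKM. For epidermis and enveloping layer 8 of 8 were higher, at 288 and 718 FPKM summed. The called markers of endoderm, blood, vessel and heart were higher in 11 of 11 cases, at 40.6 and 246 FPKM summed, with sox32 and gata4 listed at 0 in controls. The rises of btg2 and baxa were smaller than those of most of these markers: 15 of 16 muscle and paraxial mesoderm markers with both values above 0 had a larger log2 ratio than btg2, as did 18 of 24 neural and 4 of 8 epidermal markers. The log2 ratio of sesn2 lay inside the range of the germ cell markers, with 8 of 14 below it and 6 above it. The germ cell markers' median log2 ratio, -1.97, covers only the 14 of 25 listed markers that were called, hook2 (8.95-fold higher) included. Markers without q under 0.05 are thus left out of it. Set against this median instead of the authors' scaling, sesn2 differed by 0.094, which turns its sign. The same holds for the lower genes named below from the apoptosis, BTG, sestrin and stress lists with both values above 0, except ulk2. The parts of cell content and of RNA per cell in the differences of btg2, baxa and sesn2 were not tested.

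Among p53 targets as a group, called members went both ways. Of the 62 gene symbols listed as p53 targets from work mainly in mammals, 12 were called, with 9 higher (75.0%) and 3 lower (25.0%) against 65.8% and 34.2% of all called genes. Without btg2, baxa and sesn2 the split was 7 higher and 2 lower. The median log2 ratio of the 11 members with both values above 0 was 1.71, beside 1.26 over all such called genes. The share of higher members was close to the background, so it is not a result about p53 targets. At the authors' q under 0.01, which 59.1% of the deposited rows pass with that minimum and which leaves 71.6% of genes higher and 28.4% lower, the split was 4 higher and 3 lower. That count includes btg2, baxa and sesn2, so it rests in large part on genes chosen for their directions. The p53 response genes mdm2 and cdkn1a were not analysed here.

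The gadd45 genes, which encode small stress-response proteins that slow growth, were the largest family among the higher targets. Per the authors' deposited table, gadd45gb.1 went from 2.73 to 26.1 FPKM (9.56-fold, q = 0.0116), the largest fold of the list. Its relatives gadd45ga (14.2 and 46.2 FPKM, q = 0.0103) and gadd45ba (8.26 and 28.9 FPKM, q = 0.0292) were 3.26-fold and 3.50-fold higher in the authors' deposited table. None of the gadd45 calls holds at the authors' q under 0.01. Gadd45 genes are also expressed during normal somite and neural development. The phosphatase gene ppm1da, whose mammalian product shuts p53 signalling off again, went from 29.9 to 108 FPKM (3.61-fold, q = 0.00107) by the authors' deposited table and lay next to baxa and btg2 in size. The polo-like kinase gene plk3 was 2.77-fold higher in the authors' deposited table (21.6 and 59.8 FPKM, q = 0.00107). The remaining higher targets there were ptp4a3, a phosphatase gene (17.1 and 55.8 FPKM, q = 0.0486), and gtse1, whose mammalian product restrains p53 in the G2 phase (17.2 and 43.8 FPKM, q = 0.0187). The ptp4a3 and gtse1 calls do not hold at q under 0.01 either. On the lower side sesn2 stood with its relative sesn1 and with spata18, a gene of mitochondrial quality control in mammals, which the authors' deposited table gives at 3.26 FPKM in controls but lists at 0 with the dead end morpholino.

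**Figure D3:**
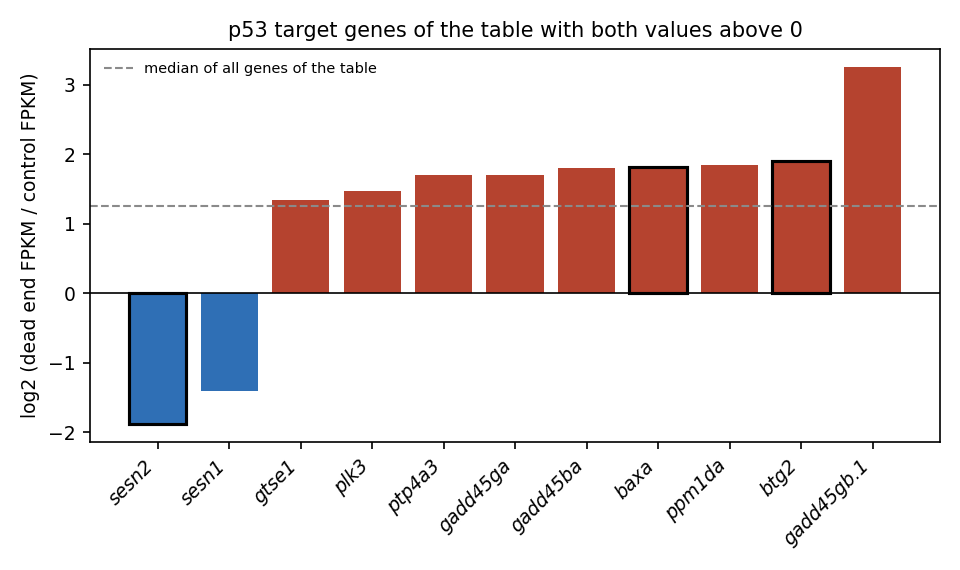
Log2 of dead end FPKM divided by control FPKM for the 11 called p53 targets with both values above 0, from the authors' 1 value per group; red bars are higher and blue bars lower with the dead end morpholino, black outlines mark btg2, baxa and sesn2, and the dashed line is the median of all genes of the table (1.26). The bars run from -1.88 for sesn2 to 3.26 for gadd45gb.1, and spata18 has no bar because it is listed at 0 in dead end morphants.

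Regulators of p53 that were called were all higher: 6 of 30 listed symbols, beside 65.8% higher among all called genes. Their median log2 ratio was 1.31, beside 1.26 over all called genes and 1.57 over the higher called genes. Whether the list differs from these was not tested. Relative to the median of all genes of the table, where a modest rise counts as lower, 4 were higher and 2 lower. The deubiquitinase gene usp7, whose product acts on both p53 and its ubiquitin ligase Mdm2, went from 27.7 to 70.5 FPKM (q = 0.00107) by the authors' deposited table. The acetyltransferase genes ep300a (14.4 and 37.7 FPKM, q = 0.00107) and ep300b (18.9 and 45.6 FPKM, q = 0.00191) were 2.62-fold and 2.41-fold higher there. The ribosomal protein genes rpl5a (238 and 536 FPKM, q = 0.00381) and rpl11 (385 and 716 FPKM, q = 0.0352), whose mammalian products can bind Mdm2, were 2.25-fold and 1.86-fold higher by the authors' deposited table. Their rises were part of a set in which 72 of 72 called ribosomal protein genes were higher, with a median log2 ratio of 1.24. The p53 relative tp63, which is an epidermal gene and stands in the epidermis list too, went from 7.46 to 39.9 FPKM (5.35-fold, q = 0.00107) by the authors' deposited table.

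Among the called genes listed for the BCL2 family and the caspases, which include the mitochondrial route of apoptosis, baxa was higher and the others were lower. Because baxa was chosen for its direction, this contrast is a description only. Without baxa the BCL2 list held 0 higher genes and 1 lower gene, too few to set against the 65.8% higher and 34.2% lower of all called genes. Of 29 BCL2 family symbols 2 were called, baxa and bcl2l13, and of 43 symbols for caspases, their adaptors and their inhibitors 2 were called, casp9 and birc7. The authors' deposited table gives bcl2l13, which in mammals encodes a mitophagy receptor, at 12.3 and 3.69 FPKM (3.34-fold lower, q = 0.00637). It gives casp9, the initiator caspase downstream of Bax, at 13.5 and 3.86 FPKM (3.49-fold lower, q = 0.0411). In controls baxa, bcl2l13 and casp9 thus stood at nearly the same FPKM. In dead end morphants the FPKM of baxa was 11.8 times that of bcl2l13 and 11.2 times that of casp9. Part of these ratios is set by the choice of baxa as a higher gene. The inhibitor of apoptosis gene birc7 was at 1.59 FPKM in controls but listed at 0 with the dead end morpholino in the authors' deposited table (q = 0.00259). No other symbol of these 2 lists matched a row of the gene table, which holds only rows with q under 0.05. An absent row does not separate an unchanged gene from one that was not detected, so the route is seen only in part. The casp9 call does not hold at the authors' q under 0.01, which leaves birc7 as the 1 called gene of its list. The birc7 call in turn does not hold at a minimum of 5 FPKM, and its value of 0 can be a failed estimate.

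In the list of the BTG and Tob family and of genes of the deadenylases CCR4-NOT and PAN, 8 of 23 symbols were called, 6 higher (75.0%) and 2 lower (25.0%). Without btg2, chosen for its direction, the split was 5 higher and 2 lower. Of all called genes 65.8% were higher and 34.2% lower, so the split is close to the background and is not a result about this family. Relative to the median of all genes of the table, where a modest rise counts as lower, the split was 5 higher and 3 lower. Next to btg2, its close relative btg1 went from 27.7 to 82.1 FPKM (2.96-fold, q = 0.00107) by the authors' deposited table. The ratio of btg2 to btg1 was 3.28 in controls and 4.15 in dead end morphants. The paralogs tob1a and tob1b differed in direction. In the authors' deposited table tob1a went from 39.2 to 223 FPKM (5.68-fold higher, q = 0.00107) and tob1b from 53.9 to 21.8 FPKM (2.47-fold lower, q = 0.00811). Their summed level went from 93.1 to 245 FPKM, so tob1b made up the larger part in controls and tob1a in dead end morphants. Closely related paralogs can share reads, and the sources used here do not give how the authors' quantification split them.

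Of the called deadenylase genes cnot6a, cnot8 and pan3 were higher and pan2 was lower. The cnot8 and pan2 calls do not hold at the authors' q under 0.01. The CCR4-NOT catalytic subunit genes cnot6a (53.03 and 160 FPKM, q = 0.00107) and cnot8 (18.8 and 44.1 FPKM, q = 0.0176) were 3.02-fold and 2.34-fold higher in the authors' deposited table. For the other deadenylase, PAN, the regulatory subunit gene pan3 was 2.93-fold higher (15.7 and 45.9 FPKM, q = 0.00107) and the catalytic subunit gene pan2 was 2.07-fold lower (23.0 and 11.1 FPKM, q = 0.0256) by the authors' deposited table.

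Both called sestrin genes were lower. Per the authors' deposited table, sesn1 went from 46.2 to 17.5 FPKM (2.64-fold, q = 0.00259), starting from nearly the same level as sesn2, and the sum of both went from 93.0 to 30.2 FPKM. In dead end morphants sesn1 was at 1.37 times the FPKM of sesn2. Of 50 symbols for sestrins and mTORC1 nutrient sensing 8 were called, 3 higher (37.5%) and 5 lower (62.5%). Of all called genes 65.8% were higher and 34.2% lower. Without sesn2, chosen for its direction, the split was 3 higher and 4 lower. Relative to the median of all genes of the table it was 1 higher and 7 lower with sesn2 counted. That median was taken over genes under the q limit, most of them higher, so a modest rise falls below it. Counted as lower on that scale were rhebl1 and rps6kb1b, which were 2.06-fold and 2.40-fold higher by FPKM. The count relative to that median therefore does not decide their direction.

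The lower members were mainly restraints on mTORC1 or an autophagy kinase. The tuberous sclerosis complex gene tsc1a, whose product inhibits mTORC1, went from 35.5 to 13.4 FPKM (2.65-fold, q = 0.00107) by the authors' deposited table. The mTOR-binding inhibitor gene deptor was at 2.68 FPKM in controls but listed at 0 with the dead end morpholino there (q = 0.00107). The autophagy-initiating kinase gene ulk2 went from 12.3 to 1.99 FPKM (6.20-fold, q = 0.00107) by the authors' deposited table, the largest fold of the list. The higher members were rhebl1, a relative of the activating GTPase Rheb (49.5 and 102 FPKM, 2.06-fold, q = 0.00588), the S6 kinase gene rps6kb1b (34.7 and 83.2 FPKM, 2.40-fold, q = 0.0267) and the translational repressor gene eif4ebp2 (18.8 and 57.9 FPKM, 3.08-fold, q = 0.00107) by the authors' deposited table. The list was compiled with the direction of sesn2 known, and these transcript levels do not measure mTORC1 activity.

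In the integrated stress response, which acts through ATF4, 6 of 39 listed genes were called. Of these sesn2, chosen for its direction, was the 1 lower gene, and without it the split was 5 higher and 0 lower. With sesn2 counted 83.3% were higher, beside 65.8% of all called genes, and whether these shares differ was not tested. At the authors' q under 0.01 the split was 3 higher and 1 lower, the lower gene being sesn2. In the authors' deposited table atf4b, the factor's own gene, went from 118 to 387 FPKM (3.29-fold higher, q = 0.00107). The tRNA synthetase genes gars (27.12 and 64.7 FPKM, q = 0.00324) and aars (28.4 and 63.4 FPKM, q = 0.00489) and the phosphatase subunit gene ppp1r15a (21.8 and 47.9 FPKM, q = 0.0283) were 2.199-fold to 2.39-fold higher there. Relative to the median log2 ratio of all genes of the table, 1.26, only atf4b of these 6 was higher. That median was taken over genes under the q limit, most of them higher, so a modest rise falls below it. The count relative to it therefore does not decide the direction of the others.

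Of 51 immediate early genes, which cells switch on within minutes of a stimulus and which cell handling can induce, 12 were called. Among these, 10 were higher (83.3%), btg2 included, and 2 lower, and at the authors' q under 0.01 the split was 10 higher and 0 lower. Of all called genes 65.8% were higher, and 71.6% at q under 0.01. Without btg2, chosen for its direction, the split at q under 0.05 was 9 higher and 2 lower. Whether this exceeds the background was not tested. The median log2 ratio of the list was 1.65, beside 1.26 over all called genes with both values above 0. Per the authors' deposited table, mycb, a Myc gene, went from 8.44 to 56.8 FPKM (6.73-fold, q = 0.00107), zfp36l1a, which encodes an mRNA decay factor, from 35.2 to 160 FPKM (4.56-fold, q = 0.00107) and ier5l from 30.0 to 104 FPKM (3.48-fold, q = 0.00107). The hindbrain transcription factor gene egr2b, which the neural list holds too, went from 8.16 to 35.6 FPKM (q = 0.00637) there. Among the immediate early genes named here btg2 had the highest FPKM in both groups.

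Unfolded protein response genes were split into 3 higher and 4 lower of 30 listed, and relative to the median of the table into 1 and 6. Relative to that median a modest rise counts as lower. Of all called genes 65.8% were higher and 34.2% lower, and whether the list differs from this was not tested. In the authors' deposited table the endoplasmic reticulum genes herpud1 (70.8 and 19.4 FPKM, q = 0.00107), hsp90b1 (110 and 37.12 FPKM, q = 0.00107), dnajb11 (58.6 and 24.4 FPKM, q = 0.00534) and pdia4 (52.9 and 22.5 FPKM, q = 0.0176) were lower, and the calreticulin gene calr3b was higher (55.6 and 226 FPKM, q = 0.00107). In the oxidative stress list only the sestrins were called, 2 of 42 symbols, both lower, with sesn2 chosen for that direction. The hypoxia list had 1 called gene of 33, hif1ab, at 54.2 and 104 FPKM (1.91-fold higher, q = 0.0251) by the authors' deposited table.

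DNA damage and repair genes were 5 higher and 4 lower of 70 listed, a split of 55.6% to 44.4%. Of all called genes 65.8% were higher and 34.2% lower, and whether the list differs from this was not tested. At the authors' q under 0.01 there were 4 higher and 2 lower, beside 71.6% and 28.4% of all genes at that limit. Relative to the median of the table, where a modest rise counts as lower, there were 4 higher and 5 lower. Per the authors' deposited table, the DNA ligase gene lig3 went from 23.0 to 88.5 FPKM (3.84-fold higher, q = 0.00107) and ercc3, a helicase gene of nucleotide excision repair, from 7.62 to 21.8 FPKM (2.86-fold higher, q = 0.00437). The crosslink and recombination repair genes fanci (19.0 and 5.195 FPKM, q = 0.0146) and brca2 (29.7 and 10.8 FPKM, q = 0.00107) and the helicase gene wrn (7.55 and 2.41 FPKM, q = 0.00324) were 3.66-fold, 2.74-fold and 3.13-fold lower there.

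**Figure D4:**
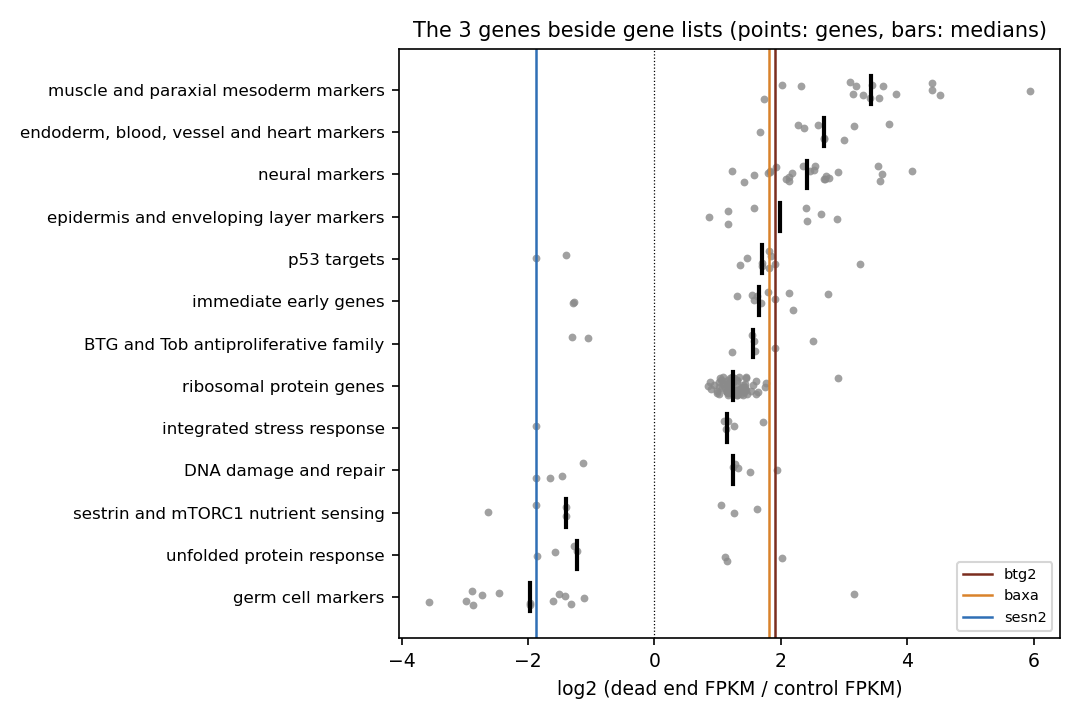
Log2 of dead end FPKM divided by control FPKM for called genes with both values above 0 in each gene list; points are genes, black bars list medians, and vertical lines the values of btg2 (1.91), baxa (1.82) and sesn2 (-1.88), with a dotted line at 0. The btg2 and baxa lines pass left of most muscle and neural markers, and the sesn2 line passes close to the median of the germ cell markers (-1.97).

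The authors' deposited enrichment tables cover gene ontology terms over the higher and the lower genes separately. They were searched by term name for apoptosis, cell death, stress and related responses, wounding among them. Among 374 terms listed for 1204 higher genes and 21 terms listed for 498 lower genes, none named apoptosis or cell death. The called genes numbered 1599 higher and 832 lower, so the terms were not computed over the same gene sets. For the lower genes the authors' deposited table lists the cellular response to stress with 26 genes where 8.46 were expected (3.07-fold, corrected p = 0.00228). The authors' deposited table also lists the cellular response to DNA damage stimulus for the lower genes, with 18 genes where 5.37 were expected (3.35-fold, corrected p = 0.0371). For the higher genes the 1 matching term in the authors' deposited table was the response to wounding, with 24 genes where 8.1 were expected (2.96-fold, corrected p = 0.0131). The name of that term holds neither apoptosis, cell death nor stress. These corrected p-values were computed by the authors over 3142 terms with all genes of the database as reference. The tables do not say which genes were counted under each term, so whether sesn2 is among the 26 is unknown.

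The genes whose pair of group values lay nearest to each of the 3 were found by the Euclidean distance over the 2 values of log2(FPKM + 1), which is a likeness over 2 numbers only. Nearest to btg2 were arid3b (94.7 and 333 FPKM, distance 0.066), the Sox transcription factor gene sox11b (89.4 and 356 FPKM, distance 0.066) and the RNA-binding protein gene nono (98.1 and 374 FPKM, distance 0.17). Nearest to baxa were cited4a (12.3 and 42.8 FPKM, distance 0.023), rnd3a (12.1 and 42.8 FPKM, distance 0.032) and the planar polarity gene prickle2b (12.7 and 41.8 FPKM, distance 0.067). Nearest to sesn2 were the phospholipid synthesis gene cds2 (45.4 and 12.7 FPKM, distance 0.044), the RNA-binding protein gene larp6 (49.3 and 11.6 FPKM, distance 0.145) and msl1a (42.7 and 14.02 FPKM, distance 0.183), a gene of a chromatin complex.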

How the data were processed

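Polyadenylated RNA of sorted germ cells was made into strand-keeping libraries, per the labels' protocols, 2 per morpholino. Cutadapt 1.10, STAR 2.5.2b, Cufflinks 2.2.1 and Cuffdiff are named by the submitters' processing notes, as are GRCz10 and Zv9, with no statement of which build served which step. The authors deposited 1 FPKM per gene and group, its log2 ratio, a test statistic (a score), and a p-value and q-value. The deposited log2 ratio matched the FPKM values within 1.34e-05. Positions are as in the table and were taken as GRCz10, because chromosome 4 positions reach 74754136, beyond that chromosome in Zv9. The authors' PANTHER tables give a count of genes per term, its expected number, the fold enrichment and a corrected p-value, per the file headers.

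The depth of the libraries is unknown, the labels do not say whether libraries came from separate clutches, and no test between groups was run. Folds are plain FPKM ratios, computed with pandas 2.3.3 in Python 3.11.15. Values at 0 FPKM (232 rows) can be failed estimates and have no fold. Genes were matched by symbol or by a name table covering 2408 of the 2477 identifiers. Named genes were the 3 genes, all called members of the p53, BCL2, caspase, BTG and sestrin lists, up to 5 members with the largest change of log2(FPKM + 1) in each other stress list, and the 3 nearest genes. The genes and lists were chosen with earlier results of these data known. The counting of directions and the median log2 ratio were tested on simulated data. The matching of list members by name was not part of that test. Alternatives covered the pseudocount, the scaling, the q limit, the FPKM minimum and overlapping list members.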

Additional observations from a re-analysis of the deposited data

How the results depend on the processing

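With pseudocounts of 0.1, 1 and 5 added to FPKM, the log2 ratio ranged from 1.85 to 1.91 for btg2, from 1.49 to 1.81 for baxa and from -1.87 to -1.55 for sesn2, and no direction changed. Relative to the median of all genes of the table (1.26, itself a median over called genes) the log2 ratios were 0.64 for btg2, 0.56 for baxa and -3.14 for sesn2. Relative to the ribosomal protein genes (1.24) they were 0.67, 0.58 and -3.12. Relative to the germ cell markers (-1.97, likewise a median over called genes) they were 3.88 and 3.79 for btg2 and baxa. On that scale sesn2 turned to 0.094, which follows from how close it lies to that median. At q under 0.01, 4 p53 targets (btg2 and baxa included) were higher, 1 gene of the caspase list lower and 1 gene of the BTG and Tob list lower. With at least 5 FPKM, 1 gene of the caspase list was lower. Relative to the median of all genes of the table, where a modest rise counts as lower, 2 p53 regulators were lower and 1 sestrin and mTORC1 gene was higher. Without btg2, baxa and sesn2, and likewise without members shared with the other lists, both chosen after the data were seen, the BCL2 family had 0 higher genes. Both settings remove baxa, the only higher called gene of that list, so this 0 was fixed in advance. Without shared members, 1 p53 target and 3 sestrin and mTORC1 genes were lower. The matching enrichment terms were 1 and 2 also at a fold of at least 2. No paired analysis was possible because the table holds 1 value per group, and no library could be left out. The spread between libraries therefore limits every value here.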

Other observations

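The authors' deposited table gives a locus rather than a transcript for each gene, and a locus can join overlapping gene models. The locus of btg2 spans 43186 bases, that of baxa 9385 and that of sesn2 16343, beside a median of 20233 over the called genes. No other called gene overlapped any of the 3 loci.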
